A study of Mus musculus with 7 samples.

Results

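The microRNAs (miRNAs) encoded within the mouse Hox clusters, namely the miR-10 family, the miR-196 family and miR-615, were followed in small RNA sequenced from the brain's lateral ventricles with their choroid plexus. They were chosen by name: every mouse row with the stem miR-10a, miR-10b, miR-196a, miR-196b or miR-615, whatever the copy number or arm, was taken, which gave 11 of 1914 mouse miRNA rows. Of these, 8 had at least 1 read, 3 had none, and only miR-10a-5p and miR-10b-5p had enough reads to be tested between genotypes.

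The libraries came from adult C57BL/6J mice, 4 labelled TAp73 Knock-out and 3 labelled Wild-type. TAp73 is the p73 isoform with a transactivation domain, a transcription factor encoded by Trp73, and the series asks how it acts after transcription when brain cells form many motile cilia. Both groups share strain, stage and tissue, and apart from the numbers in their titles they differ in the labels only by genotype. The labels do not say how the knockout was made, in which cells it acts, or whether each library is a separate animal, so p-values measure the spread between libraries, which may be technical. Replicates were numbered in the order of deposition, and the numbers pair nothing.

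Hox genes set positional identity along the body axis, and their order on the chromosome follows the order of their expression domains from head to tail. The miR-10 genes sit beside the group 4 Hox genes, the miR-196 genes beside the group 9 Hox genes, and Mir615 within Hoxc5, and each is generally expressed with its neighbours. Among their known targets are Hox messages themselves, for example Hoxb8 for miR-196. The forebrain, which holds the lateral ventricles, develops in front of the domain of Hox expression. miR-10 is also known from vessel endothelium.

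The mature sequences (RefSeq, build GRCm38.p6, found for 11 of 11 members) are shown because members differ by so little that read assignment matters, and because the seeds define the families. Capitals mark the seed, bases 2 to 8 from the 5′ end.
miR-10a-5p: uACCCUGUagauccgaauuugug
miR-10b-5p: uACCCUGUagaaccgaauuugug
miR-100-5p: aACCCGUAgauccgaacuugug
miR-99a-5p: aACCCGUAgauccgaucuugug
miR-99b-5p: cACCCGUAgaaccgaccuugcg
miR-196a-5p: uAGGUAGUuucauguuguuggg
miR-196b-5p: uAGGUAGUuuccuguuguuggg
miR-615-3p: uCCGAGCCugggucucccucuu
The seed ACCCUGU was found in no other mature mouse miRNA of that table than the 5p arms of miR-10a and miR-10b, and AGGUAGU in no other than those of miR-196a and miR-196b. The 5p arms of miR-10a and miR-10b differed by 1 base, U12A (miR-10a base first, position counted from the 5′ end). Those of miR-196a and miR-196b also differed by 1 base at the same position, A12C, so in both families the seed is shared and the 5p arms are told apart by a single central base. The related miR-99 and miR-100 carry a different seed. From position 7, miR-10a-5p shares a run of 11 bases with miR-100-5p, and miR-10b-5p shares 10 bases with miR-99b-5p, whereas miR-10b-5p and miR-100-5p share at most 5 bases in a row. The edit distance between miR-10a-5p and miR-100-5p was 3, against 1 between miR-10a-5p and miR-10b-5p.

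The 6 hairpin genes lie in all 4 Hox clusters (build GRCm38, GENCODE release M21). Mir10a is at chr11:96317165-96317274 on the plus strand, between Hoxb5 and Hoxb4, and overlaps no other annotated gene. Mir10b is at chr2:74726070-74726137 on the plus strand, in introns of transcripts of Hoxd4 and Hoxd3. Mir196a-1 is at chr11:96265164-96265265 on the plus strand, between Hoxb13 and Hoxb9, in no other gene. Mir196a-2 is at chr15:102973350-102973434 on the plus strand, between Hoxc10 and Hoxc9, in an intron of a long Hoxc5 transcript. Mir196b is at chr6:52230081-52230165 on the minus strand, within Hoxa9, where it is exonic in some transcripts and intronic in another. Mir615 is at chr15:103014910-103015001 on the plus strand, in an intron of Hoxc5. The mature miR-196a-5p is the same from both of its genes, so its reads cannot be divided between the Hoxb and Hoxc clusters.

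**Figure D1:**
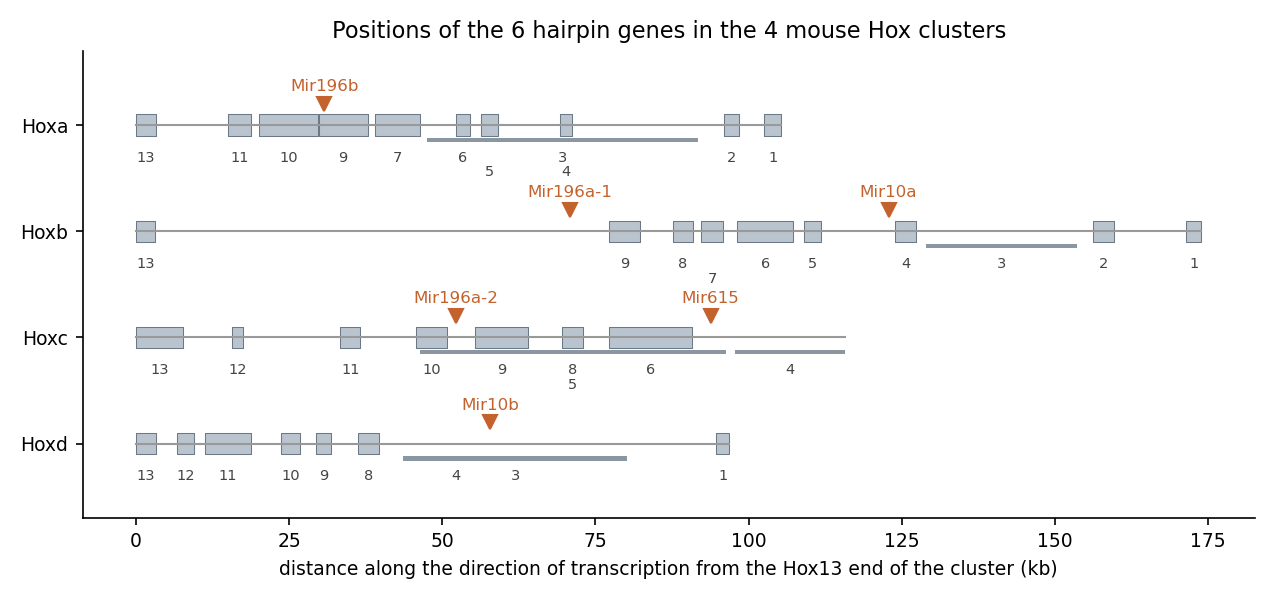
Map of the 4 mouse Hox clusters, with distance in kb along the direction of transcription from the Hox13 end on the x axis. Boxes are Hox genes, thin bars are Hox genes whose annotated span exceeds 14 kb, numbers are Hox groups, and triangles mark the 6 hairpin genes: Mir10a and Mir10b lie at group 4, and the 3 miR-196 genes lie on the Hox13 side of or within group 9.

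The libraries held 955057 to 9233235 mouse miRNA reads, 98.6% to 98.98% of all reads counted. Knockout replicate 3 was the shallowest, and there a count of 0 still leaves room for 3 reads, or 3.14 CPM (counts per 1000000 mouse miRNA reads, the unit of all levels below), against 0.325 CPM in knockout replicate 1. Wild type replicate 2 correlated more closely with knockout replicate 2 (Pearson r of log2 levels 0.993) than with wild type replicates 1 and 3 (0.990 and 0.989). The choroid plexus miRNA miR-204-5p, which marks part of the labelled tissue, stood at 2006 to 11775 CPM and was lowest in knockout replicate 3 and wild type replicate 2 (2009 CPM). In bulk tissue, fewer cells of a type and less RNA per cell cannot be told apart.

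The miR-10 family dominated. Its rows took 99.6% of the 23988 reads of all members, the miR-196 rows 0.246% and miR-615 0.104%. miR-10b-5p, from the Hoxd cluster, was the most abundant member. It stood at 475 CPM, 725 CPM and 767 CPM in wild type replicates 1 to 3, and at 479, 449, 629 and 438 CPM in knockout replicates 1 to 4. Wild type replicates 2 and 3 and knockout replicate 3 were the high libraries, and wild type replicate 1 lay among the remaining knockouts, so the groups overlapped. miR-10a-5p, from the Hoxb cluster, stood at 298, 310 and 338 CPM in wild type replicates 1 to 3, and at 251, 219, 309 and 264 CPM in knockout replicates 1 to 4. Here 3 of the 4 knockouts lay below all wild types, and knockout replicate 3 lay between wild type replicates 1 and 2.

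Among all 1914 mouse rows, miR-10b-5p ranked between position 81 and 105 by level, and miR-10a-5p between 126 and 154. The miR-10 family as a whole was 850 ± 174 CPM over all libraries (SD, n = 7), or 0.085% of mouse miRNA reads. Across the 7 libraries the coefficient of variation was 24.5% for miR-10b-5p and 14.5% for miR-10a-5p, beside a median of 22.1% over the 534 tested miRNAs.

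**Figure D2:**
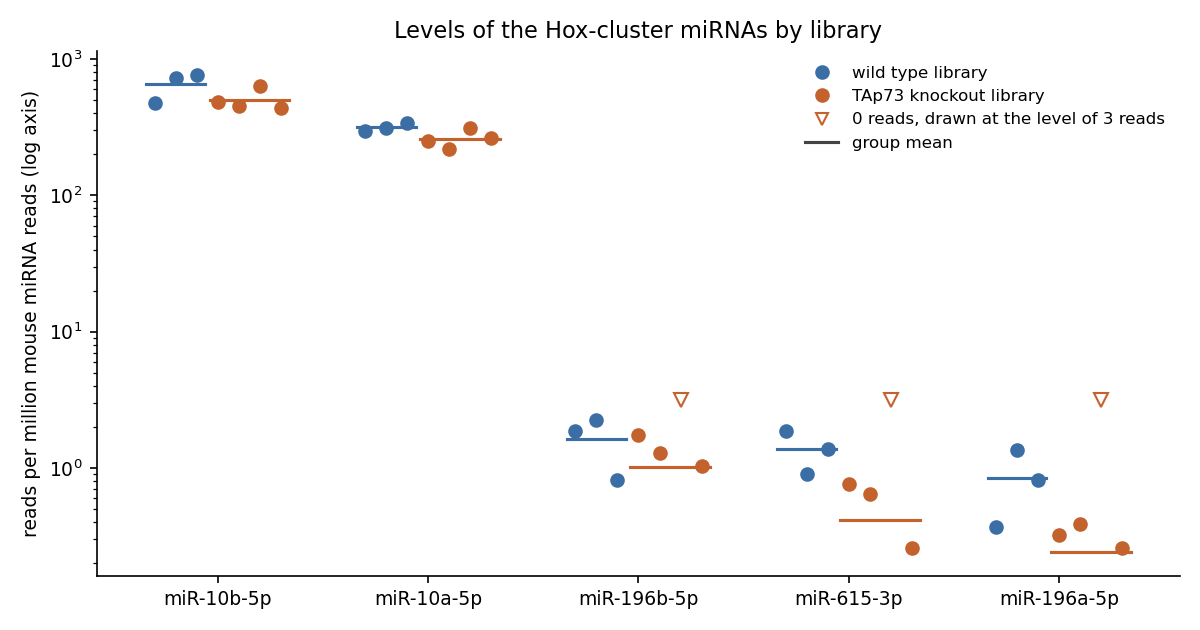
Levels of the 5 members with more than 10 reads in all, in CPM on a log axis. Each point is a library, and lines are group means over all libraries. Open triangles are libraries with 0 reads drawn at the level of 3 reads, which is 3.14 CPM in knockout replicate 3. The miR-10 arms stand at 219 to 767 CPM. In libraries with reads, the miR-196 and miR-615 arms stand at or below 2.26 CPM.

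The miR-196 and miR-615 members were close to the detection limit. miR-196b-5p, from the Hoxa cluster, had 43 reads in all, 1.42 CPM of the pooled reads (95% exact interval 1.03 to 1.91, counting error only), with 5, 5 and 3 reads in the wild types and 16, 10, 0 and 4 in the knockouts. miR-196a-5p had 14 reads, 0.462 CPM (0.252 to 0.775), with 1, 3 and 3 reads in the wild types and 3, 3, 0 and 1 in the knockouts. miR-196b-5p thus had 3.07 times the reads of miR-196a-5p, with more in 5 of 7 libraries and equal numbers in the other two. miR-615-3p, the main arm of the Hoxc5 intronic miRNA, had 25 reads, 0.824 CPM (0.534 to 1.22). Between miR-196b-5p and miR-615-3p the order was not the same in every library: miR-196b-5p had more reads in 4, fewer in 1 and as many in 2. Nor was it between miR-615-3p and miR-196a-5p, where miR-615-3p likewise had more reads in 4, fewer in 1 and as many in 2. Of the opposite arms, miR-196a-1-3p had 2 reads, and miR-196a-2-3p, miR-196b-3p and miR-615-5p had 0 reads in all 7 libraries together. By the limit of 3 reads this allows up to 0.0989 CPM, and the upper end of the 95% exact interval is 0.122 CPM. Against miR-196b-5p, the next member in the order, miR-10a-5p had 187 times the reads and was higher in 7 of 7 libraries.

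The miR-99 and miR-100 relatives, which lie outside the Hox clusters and whose 5p arms resemble miR-10 apart from the seed, were far more abundant. miR-99b-5p stood at 65383 ± 8929 CPM (SD, n = 7), miR-100-5p at 36761 ± 4543 CPM and miR-99a-5p at 7638 ± 1188 CPM. Their sum exceeded that of the miR-10 5p arms by 94.5-fold in wild type replicate 2 and 94.8-fold in wild type replicate 3, by 165-fold in wild type replicate 1, and by 128-fold to 167-fold in the knockouts. How reads of similar sequence were assigned is not given in the sources used here, and whether any read of these relatives was counted as miR-10 was not tested.

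The pair was next compared within each library, which is free of library scaling. miR-10b-5p exceeded miR-10a-5p in 7 of 7 libraries, by 1.59-fold to 2.34-fold (mean 1.98 ± 0.28, SD, n = 7). The share of miR-10a-5p in the reads of both was 38.6% in wild type replicate 1 (95% Wilson interval 36.5% to 40.7%), 29.9% in replicate 2 (28.1% to 31.8%) and 30.6% in replicate 3 (29.2% to 32.01%). In knockout replicates 1 to 4 it was 34.3%, 32.8%, 32.9% and 37.6%, with the widest interval, 29.9% to 36.1%, in replicate 3. The wild types thus held both the highest and the lowest share, and the knockouts lay between them. The interval of wild type replicate 1 did not meet those of the other wild types, so the wild types differed among themselves by more than counting error.

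Genotype did not separate this ratio. The log2 ratio of miR-10a-5p to miR-10b-5p averaged -1.03 ± 0.31 in wild types (SD, n = 3) against -0.93 ± 0.14 in the knockout group (SD, n = 4), a difference of 0.10 (exact permutation test, two-sided, p = 0.60, and 0.60 after adjustment over the 3 ratios tested). The smallest p that the 35 splits allow is 0.029. The sign of the difference turned without wild type replicate 2 (-0.0049). It was 0.27 without wild type replicate 1 (exact permutation p = 0.13), where fewer splits exist and no p under 0.05 is possible.

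**Figure D3:**
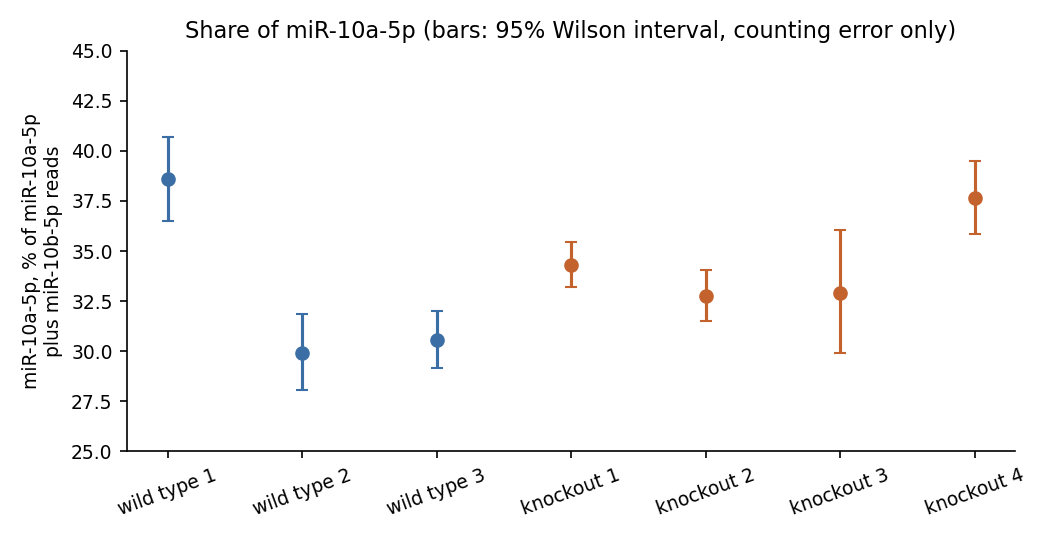
Share of miR-10a-5p in the reads of miR-10a-5p and miR-10b-5p together, in percent, for each of the 7 libraries, with 95% Wilson intervals. Wild type replicate 1 (38.6%) and knockout replicate 4 (37.6%) are highest, and wild type replicates 2 and 3 (29.9% and 30.6%) are lowest.

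Across the 7 libraries the levels of the pair rose and fell together (log2 levels, Pearson r = 0.81, exact permutation p = 0.025, and Spearman rho = 0.82, exact permutation p = 0.034). This was the only correlation tested, the later ones being given without a p, so its p is not adjusted for them, and both values come from the same libraries with the same totals. Without knockout replicates 1 and 2, the libraries farthest from the median of miR-10a-5p, r was 0.88 over 5 libraries. Each genotype has too few libraries for a value of its own. The permutations ran over all 7 libraries without regard to genotype, and both members averaged lower in the knockouts. The part of genotype, or of read assignment between the pair, in the correlation was not tested.

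Nearly all miR-10 reads came from the 5p arm. The precursors are shown with both annotated arms in capitals (RefSeq, build GRCm38.p6, 5′ to 3′, plus strand), to place the arm that was read and the arm that was almost never read.
Mir10a: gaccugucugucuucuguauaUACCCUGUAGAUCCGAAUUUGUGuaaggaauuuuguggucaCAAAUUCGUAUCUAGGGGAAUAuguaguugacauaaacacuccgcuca
Mir10b: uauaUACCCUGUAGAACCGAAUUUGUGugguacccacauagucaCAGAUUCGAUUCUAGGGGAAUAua
In the Mir10b precursor the first capitals, miR-10b-5p, had 15860 reads and the second, miR-10b-3p, had 3, a 3p share of 0.0189% (95% exact interval 0.0039% to 0.0553%). In the Mir10a precursor miR-10a-5p had 8038 reads and miR-10a-3p had 3, a share of 0.0373% (0.0077% to 0.109%). The 3p arms differ from each other by 3 bases, within as well as outside the seed.

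Of 191 mouse hairpins with rows for both arms and at least 1000 reads, the minor arm took a median of 2.28% of the reads (quartiles 0.180% and 16.5%). miR-10b was at position 12 and miR-10a at position 24 from the lowest share, and 20.4% of the hairpins were under 0.1%. Of these hairpins, 7 had 0 reads on one arm, among them miR-126a with 28839 reads on its 3p arm. The part of the counting method in these shares was not tested. The log2 ratio of the arms did not differ by genotype for miR-10a (difference -0.94, exact permutation p = 0.46) or miR-10b (0.53, exact permutation p = 0.54; adjusted over the 3 ratios 0.60 for both). With 0 to 2 reads of the 3p arm per library, these ratios mainly follow depth, and a difference between genotypes was not detectable at this depth.

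**Figure D4:**
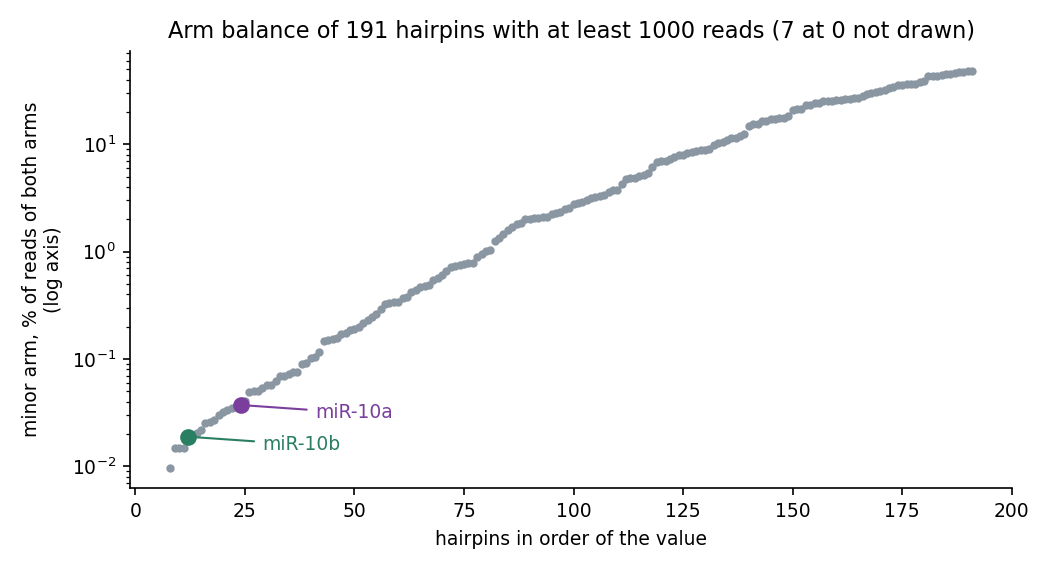
Share of the minor arm in the reads of both arms, in percent on a log axis, for mouse hairpins with at least 1000 reads in all, in order of the value. miR-10b (0.0189%) and miR-10a (0.0373%) lie at the low end, below the median of 2.28%.

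Between genotypes, both tested members were lower in the knockouts on average, and neither passed the test. miR-10b-5p averaged 656 ± 158 CPM in wild types (SD, n = 3) against 499 ± 88.8 CPM in the knockout group (SD, n = 4). For miR-10a-5p the wild type mean was 315 ± 20.1 CPM and the knockout mean 261 ± 37.4 CPM. In edgeR's quasi-likelihood test the log2 fold change, knockout minus wild type, was -0.32 ± 0.18 for miR-10b-5p (SE, 95% interval -0.72 to 0.09, adjusted p = 0.51) and -0.20 ± 0.15 for miR-10a-5p (-0.53 to 0.13, adjusted p = 0.60). The intervals run from 0.607-fold to 1.06-fold for miR-10b-5p and from 0.692-fold to 1.09-fold for miR-10a-5p. Of the 2 tested members 0 were called by edgeR, where 1.12% of the 534 tested miRNAs were called (adjusted p under 0.05). At an unadjusted p under 0.05 edgeR also had 0 of 2 (12.9% of all tested), and DESeq2 and limma-voom called 0. Neither member had groups that did not overlap (11.8% of all tested). The median log2 fold change over all tested miRNAs was -0.02.

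For miR-10b-5p, the size of the fold change depended on single libraries. Its fold change was -0.51 without wild type replicate 1 (edgeR adjusted p = 0.27, unadjusted 0.012), -0.44 without knockout replicate 3 (0.36, unadjusted 0.031), and -0.22 without wild type replicate 2 or replicate 3 (0.69 and 0.68). For miR-10a-5p the fold change lay between -0.31 and -0.14 over 17 other settings and library sets. The adjusted p was 0.27 or more for both members in each of them, and both stayed below 0 in all 17.

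**Figure D5:**
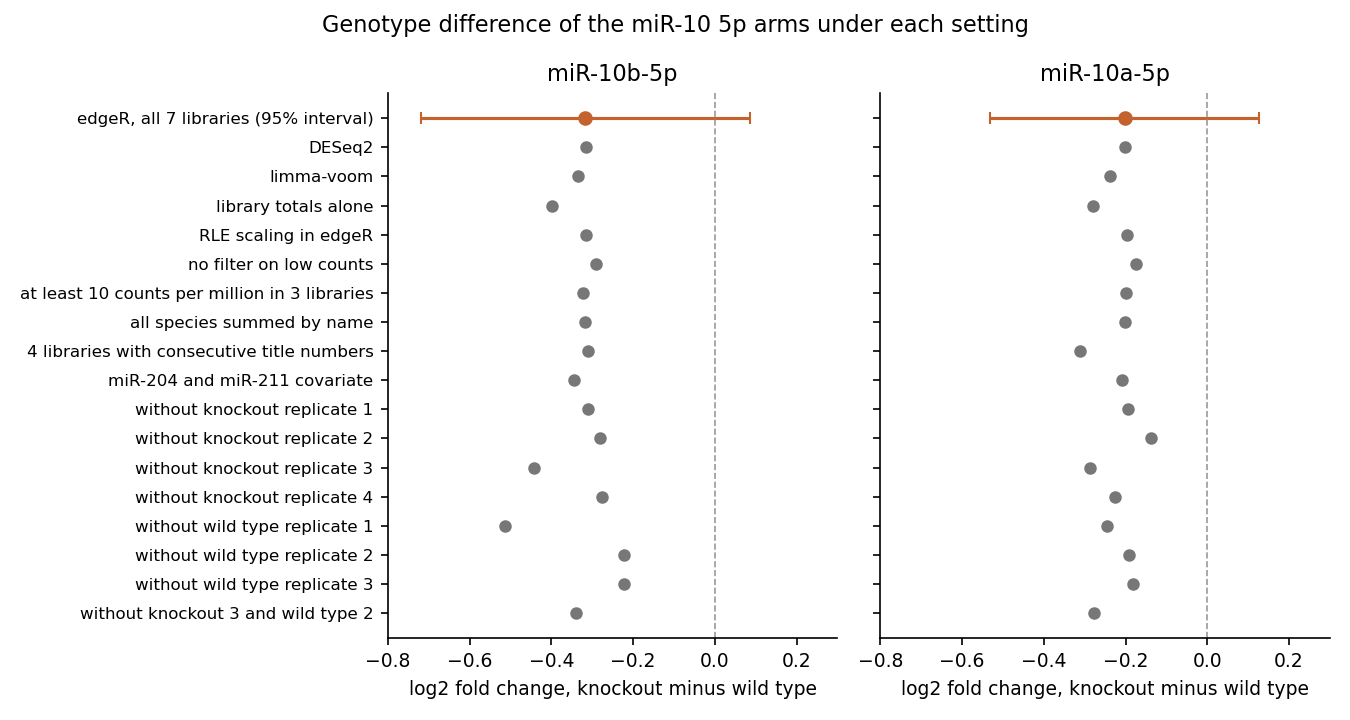
Log2 fold change of miR-10b-5p and miR-10a-5p, knockout minus wild type, in the edgeR test on all 7 libraries with its 95% interval and under the 17 other settings as points. All points lie left of 0, between -0.51 and -0.14, and both intervals cross 0.

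The relatives outside the Hox clusters did not pass either: miR-99a-5p had a log2 fold change of 0.19 ± 0.16, miR-99b-5p 0.05 ± 0.15 and miR-100-5p 0.06 ± 0.14 (SE, edgeR adjusted p = 0.65, 0.87 and 0.86). Whether miR-10 differs from them in its response was not tested.

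The levels of other cell types' miRNAs stand beside these values as follows. The choroid plexus list (3 of 4 rows with reads, miR-211-3p at 0) summed to 2016 to 7435 CPM in knockouts and 2015 to 11789 CPM in wild types. With miR-204 and miR-211 as a covariate, the fold changes were -0.34 for miR-10b-5p and -0.21 for miR-10a-5p. Without knockout replicate 3 and wild type replicate 2, the libraries lowest in this list, they were -0.34 and -0.28, a choice made after seeing the data. The vessel wall list (9 of 10 rows with reads, miR-126a-5p at 0), led by miR-143-3p, overlapped between genotypes at 16462 to 21396 CPM in knockouts and 16908 to 25510 CPM in wild types. This sum mainly follows miR-143-3p, which alone stood at 15389 to 20237 CPM in knockouts and 15723 to 24270 CPM in wild types. The neuronal list (8 of 8 rows with reads), led by miR-128-3p, also overlapped, at 32646 to 38443 CPM and 20750 to 34658 CPM. Of the 8 neuronal rows, 1 did not overlap, beside 11.8% of all rows tested. This was the leading row, miR-128-3p, at 17802 to 19444 CPM in knockouts and 8795 to 16667 CPM in wild types (log2 fold change 0.70, edgeR adjusted p = 0.15).

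In 3 lists the summed levels of the genotypes did not overlap, which was not tested. The skeletal and heart muscle list (5 of 6 rows with reads, miR-133b-3p at 0), led by miR-133a-3p, was lower in each knockout, at 6.96 to 9.42 CPM against 11.8 to 13.0 CPM. Of its 6 rows, miR-1a-3p and miR-133a-3p did not overlap, beside 6.62% of the mouse miRNA rows with reads. miR-1a-3p was below the filter on low counts, and miR-133a-3p had a log2 fold change of -0.85 (edgeR adjusted p = 0.38). These levels rest on few reads, since 1 read in knockout replicate 3 is 1.05 CPM. The neural progenitor and glial list (3 of 3 rows), led by miR-9-5p, was higher in each knockout, at 35760 to 41685 CPM against 28586 to 34833 CPM, although 0 of its 3 rows separated the genotypes on their own. The multiciliated cell list (6 of 6 rows), led by miR-34c-5p, summed to 385 to 760 CPM in knockouts against 1291 to 3675 CPM in wild types. Each of its 6 rows separated the genotypes on its own, beside 11.8% of all rows tested, but the directions were split. The 4 arms of miR-34b and miR-34c fell, while miR-449a-5p rose by 2.67 and miR-449c-5p by 3.12 on the log2 scale (edgeR adjusted p = 0.0048 and 0.0018). The blood list (8 of 8 rows), led by the joined row of miR-486a-5p and miR-486b-5p, overlapped, at 4404 to 6000 CPM and 4455 to 4737 CPM. Of its 8 rows, 1 did not overlap, miR-142a-5p, beside 11.8% of all rows tested. The oligodendrocyte list (3 of 4 rows, miR-219a-5p at 0), led by miR-219a-2-3p, overlapped at 598 to 833.1 CPM and 603 to 997 CPM. So did the pituitary and hypothalamic list (3 of 3 rows), led by miR-375-3p, at 309 to 599 CPM and 403.8 to 1347 CPM. The part of these cell types in the miR-10 values was not tested.

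The sparse members were below the filter on low counts, and their values are given without a call. miR-615-3p had 5, 2 and 5 reads in wild type replicates 1 to 3, or 1.85, 0.904 and 1.37 CPM. It had 7, 5, 0 and 1 reads in knockout replicates 1 to 4, or 0.758, 0.650, 0 and 0.258 CPM. All 4 knockouts were listed below all 3 wild types. Of the mouse miRNA rows with reads, 6.62% had genotypes that did not overlap, counted in either direction. The 0 of knockout replicate 3, however, allows up to 3.14 CPM, which is above each wild type. The pooled levels were 0.597 CPM in knockouts (95% exact interval 0.318 to 1.02) and 1.40 CPM in wild types (0.725 to 2.45). These intervals overlap, which is not a test of a difference, and they cover counting error only. With no filter on low counts, the log2 fold change in edgeR was -1.10 for miR-615-3p (adjusted p = 0.67), -1.17 for miR-196a-5p (adjusted p = 0.71) and -0.12 for miR-196b-5p (adjusted p = 0.96). Differences of these members between genotypes were not detectable at this depth.

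The miRNAs whose levels ran most like those of each tested member over the 7 libraries were not the same for the pair. For miR-10b-5p they were miR-7a-2-3p (Pearson r of log2 levels 0.96), miR-148a-3p (0.94), miR-376b-3p (0.87), miR-323-5p (0.87) and miR-1843a-5p (0.86). miR-7a-2-3p stood at 9.64, 19.9 and 28.5 CPM in wild type replicates 1 to 3, and at 13.0, 9.61, 16.8 and 9.02 CPM in knockout replicates 1 to 4. Like miR-10b-5p, it was highest in wild type replicates 2 and 3, followed by knockout replicate 3. For miR-10a-5p they were miR-700-3p (0.93, 1042 reads in all), miR-93-3p (0.92, only 117 reads), miR-346-5p (0.90, 8439 reads), miR-205-5p (0.89, only 103 reads) and miR-489-3p (0.88, only 56 reads). These values describe 7 libraries that share totals and genotype, and among 534 miRNAs some run alike by chance.

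For 111 rows of other species that carry the names of these families, the tables list 0 reads in the 7 libraries, so adding species by name left the levels of the members the same apart from a slightly larger total.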

How the data were processed

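Small RNA was sequenced with the TruSeq kit from 7 total RNA samples. The deposited tables give, for each small RNA name, the raw count of its reads without normalization, and the 5 closing lines for unassigned reads hold 0. Of the tools and builds, bcl2fastq 2.17.1.14, DESeq2 and mm10 appear in the submitters' processing notes. Aligner, counter and annotation: not given in the sources used here. Reads carry no molecular identifiers, so intervals and limits cover counting error only. Levels are counts per 1000000 mouse miRNA reads.

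Genotypes were compared over the whole mouse miRNA table by edgeR 4.0.16 under R 4.3.3 (TMM scaling, filterByExpr with minimum count 10 and minimum total 15, robust quasi-likelihood test, Benjamini-Hochberg adjustment over 534 rows), after a test on simulated data. Ratios used a pseudocount of 0.5 read and an exact permutation test. DESeq2 1.42.0 and limma-voom (limma 3.58.1), other scalings and filters, a covariate, and sets with fewer libraries were alternatives. The chi-square per degree of freedom between libraries was 46.6 to 271, so no pair agreed within counting noise. Members and lists were chosen with earlier results of these data known. Named are all members, the 3 relatives and the 5 miRNAs most like each tested member. From each marker list, the leading row, rows at 0 and rows whose genotypes did not overlap are also named.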

Additional observations from a re-analysis of the deposited data

Results flagged for a closer look

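For 30 values, the 4 knockouts were checked for a library far from the rest, and 2 stood out, where chance gives about 1 in 20. Both are single reads in knockout replicate 2: miR-10b-3p and miR-196a-1-3p each had 1 read there (0.130 CPM) and 0 in the other 3 knockouts, so the gap was 1.0 of the group's range. These are at the limit of 1 count and carry no weight as levels. The 3 wild types were too few for this examination.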

How the results depend on the processing

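Of the 17 alternatives to the edgeR test, each gave 0 calls among the members. The number of miRNAs called over the whole table, 6, was 13 with DESeq2, 19 with no filter on low counts and 19 without knockout replicate 3 and wild type replicate 2 together, and 3 to 14 when 1 library was left out, lowest without wild type replicate 1 and highest without wild type replicate 2. The cause was not tested. With library totals alone, the median of all tested miRNAs was -0.10, against -0.02, and the fold changes were -0.40 for miR-10b-5p and -0.28 for miR-10a-5p. The 4 libraries with consecutive title numbers are knockout replicates 1 and 2 and wild type replicates 1 and 2. The difference in the log2 ratio of miR-10a-5p to miR-10b-5p (0.10) was -0.038 in these 4 libraries, and -0.0049 to 0.27 when 1 library was left out. That of the miR-10a arms (-0.94) was 0.049 with a pseudocount of 5 and 0.62 in those 4 libraries. It ranged from -1.72 to -0.20 when 1 library was left out, and that of the miR-10b arms (0.53) from 0.011 to 0.97, lowest without knockout replicate 1 and highest without knockout replicate 3 in both. Each rests on 3 reads of the 3p arm. When 1 library of the group was left out, the mean summed level ranged from 904 to 1070 CPM (wild type) and 700 to 790 CPM (knockout) for miR-10, from 1.93 to 3.15 CPM and 1.04 to 1.72 CPM for miR-196, and from 1.138 to 1.61 CPM and 0.302 to 0.555 CPM for miR-615. No paired analysis was possible because the groups share no replicate numbers in the labels. The members under 50 reads are limited by depth, above all in knockout replicate 3.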
